A study of Mus musculus with 22 samples.

Results

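The 2 Mb next to the centromere of each mouse autosome were examined for ATRX, H3K9me3, G-quadruplex (G4) and open chromatin peaks in embryonic stem (ES) cells with and without TERRA, the telomeric repeat-containing RNA. A window was laid from the first sequenced base of each of chromosomes 1 to 19 in GRCm38, since mouse chromosomes are telocentric and the assembly starts, after a run of unknown bases, on the centromeric side. Every peak lying wholly inside a window was a member. There were 29334 members among 1581404 peaks of 16 lists, of which 1947 were ATRX, 6015 H3K9me3, 13983 G4 and 7389 ATAC peaks. The choice used position only and no measured value.

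The cells were of a female ES line of CAST/Ei x 129/Sv/Jae background, cultured in serum with LIF. All had received a locked nucleic acid (LNA) gapmer, an antisense oligonucleotide that directs RNase H to its target. In scramble KD the gapmer had no target sequence, and in TERRA KD it was directed against TERRA. Both were assayed after 12 h, with 2 replicates per condition for each of ATRX ChIP-seq, H3K9me3 ChIP-seq, G4 ChIP-seq with the antibody BG4, and ATAC-seq. All samples came from the same cell line. The study calls the ATRX and G4 replicates biological, and the labels of the others give a replicate number only, so the spread between those may be technical. The TERRA level itself is not in the peak lists, so the knockdown could not be checked here.

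Mouse centromeres lie at the very end of the chromosome, between the short-arm telomere and long arrays of satellite repeats that are packed as constitutive heterochromatin. H3K9me3 is the mark of that heterochromatin and is read by HP1 proteins. ATRX is a chromatin remodeller of the SWI/SNF family that, with its partner DAXX, places histone H3.3 at telomeres and pericentric repeats and recognises H3K9me3. G4 structures form in DNA with runs of guanines, including the telomeric repeat, and are enriched at promoters in open chromatin. The satellite arrays themselves are mostly missing from the assembly, so the windows start beyond them and hold sequence that passes from pericentric repeats into gene-bearing chromatin.

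Several members lay on repeats whose letters a reader needs to follow the results. The first is a tandem repeat on chromosome 4, shown because it carried an ATRX peak in all 4 lists. The sequence around its summit is intergenic, at chr4:3165145-3165364 (GRCm38, plus strand). Capitals mark bases in runs of 16 that also occur in the H3K9me3 site with the best places in the windows, which lies on another chromosome.
Tandem repeat: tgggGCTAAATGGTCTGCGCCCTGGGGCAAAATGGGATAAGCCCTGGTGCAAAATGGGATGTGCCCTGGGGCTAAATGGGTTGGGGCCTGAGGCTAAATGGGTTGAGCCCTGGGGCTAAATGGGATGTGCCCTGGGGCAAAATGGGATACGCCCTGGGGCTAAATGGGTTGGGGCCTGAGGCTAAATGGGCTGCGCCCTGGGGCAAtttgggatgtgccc
Of these 220 bases, 202 were shared in that sense. Over the whole sites, 49.3% of the 16-base words of the smaller site occurred in the other, and both matched themselves best at a shift of 22 bases.

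The second is, of the ATAC sites in all 4 lists, the one whose worst place, as a share of its list, was best. It is a narrow intergenic site on chromosome 12, at chr12:3109890-3110039 (GRCm38, plus strand), with CpG dinucleotides in capitals.
Narrow site: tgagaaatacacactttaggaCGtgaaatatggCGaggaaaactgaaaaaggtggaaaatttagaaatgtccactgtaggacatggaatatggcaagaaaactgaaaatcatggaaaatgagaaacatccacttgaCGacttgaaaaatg
These letters resemble the major (gamma) satellite, the repeat of mouse pericentric heterochromatin, although no satellite consensus was at hand to compare them with. The last pair are G4 sites present in all 4 lists, at chr19:3318388-3318537 and chr14:4241436-4241585 (GRCm38, plus strand), both intergenic, with capitals on the G4 motif. They are shown because they hold that motif, which the best-placed G4 site of the windows, on chromosome 12, does not.
G4 site on chromosome 19: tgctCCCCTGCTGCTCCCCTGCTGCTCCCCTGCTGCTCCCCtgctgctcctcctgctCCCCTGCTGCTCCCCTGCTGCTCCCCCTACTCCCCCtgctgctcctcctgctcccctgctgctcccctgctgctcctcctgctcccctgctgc
G4 site on chromosome 14: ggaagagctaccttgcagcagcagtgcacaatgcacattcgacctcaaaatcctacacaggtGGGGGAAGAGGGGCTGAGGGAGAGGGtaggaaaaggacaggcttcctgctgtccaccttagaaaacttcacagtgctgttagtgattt
The motif is 4 runs of at least 3 G separated by 1 to 7 bases, or the same with C, which is the motif on the other strand, and 2.52% of 150-base tiles of the windows held it.

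The windows covered 37886309 sequenced bases, 1.58% of the autosomes. Their GC content was 42.2% against 41.9% for the autosomes as a whole, and 40.6% of their bases were soft-masked as repeats against 33.5%. They held 497 annotated gene starts, 13.1 per Mb against 10.4 per Mb, and 219 G4 motifs per Mb against 222. The libraries held between 2961038 and 24588605 tags after removal of duplicates, and the lists were of unequal length. ATRX lists held 7321 to 41384 peaks, H3K9me3 lists 25490 to 76213, G4 lists 140119 to 389434 and ATAC lists 78571 to 103911. ATAC peaks lay within 1 kb of the start of 8 of 10 ES cell marker genes in every list, Pou5f1 and Sox2 among them. They were also found in every list at 5 of 10 fibroblast markers, Col1a1, Col1a2, Thy1, Twist1 and Fn1, and in none at Col3a1, Postn and Lum. Dcn had one in both scramble KD lists alone and Prrx1 in TERRA KD replicate 2 alone. Feeder cells had been removed before transfection, and their part in the results was not tested.

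H3K9me3 was the most concentrated of the marks on the centromeric side. Its members numbered 824 and 2155 in scramble KD, against 758 and 2278 in TERRA KD. They were 3.41% and 3.08% of autosomal H3K9me3 peaks in scramble KD, against 3.30% and 3.32% in TERRA KD, where 1.58% of the bases lie. Per Mb, the density was 2.11-fold that of the rest of the autosomes (mean log2 ratio 1.08 ± 0.06, SD, n = 4 lists) and was above it in 4 of 4 lists. An exact sign-flip test over the 4 lists gave p = 0.125, the smallest it allows, and 0.167 after Benjamini-Hochberg adjustment over the 4 marks.

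ATRX members numbered 169 and 330 in scramble KD, against 975 and 473 in TERRA KD, and their density was 1.56-fold that of the rest (log2 0.64 ± 0.08, SD, n = 4). For ATAC, with 1536 and 2016 members in scramble KD, against 1700 and 2137 in TERRA KD, the density was 1.34-fold that of the rest (log2 0.42 ± 0.05, SD, n = 4). Both were above the rest in 4 of 4 lists, with the same exact p of 0.125. G4 behaved differently. Its 2277 and 5698 members in scramble KD, against 2692 and 3316 in TERRA KD, amounted to 1.01-fold the density of the rest (log2 0.01 ± 0.08, SD, n = 4, exact sign-flip p = 0.875), with 2 lists above and 2 below.

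The other end of the same chromosomes gave a second reference. Against the distal 2 Mb, the proximal density was 1.70-fold for H3K9me3, 1.39-fold for ATRX, 1.17-fold for ATAC and 0.950-fold for G4, each in the same direction in 4 of 4 lists (exact sign-flip p = 0.125 for each). The distal windows held 604 gene starts and 34.2% soft-masked bases. Restricted to peaks whose -log10 p reached 5, ATRX had a log2 ratio to the distal windows of 0.27 (exact sign-flip p = 0.5) and G4 of -0.069 (p = 0.375), so that neither kept its direction in every list. None of these tests could pass a threshold of 0.05 with 4 lists.

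**Figure D1:**
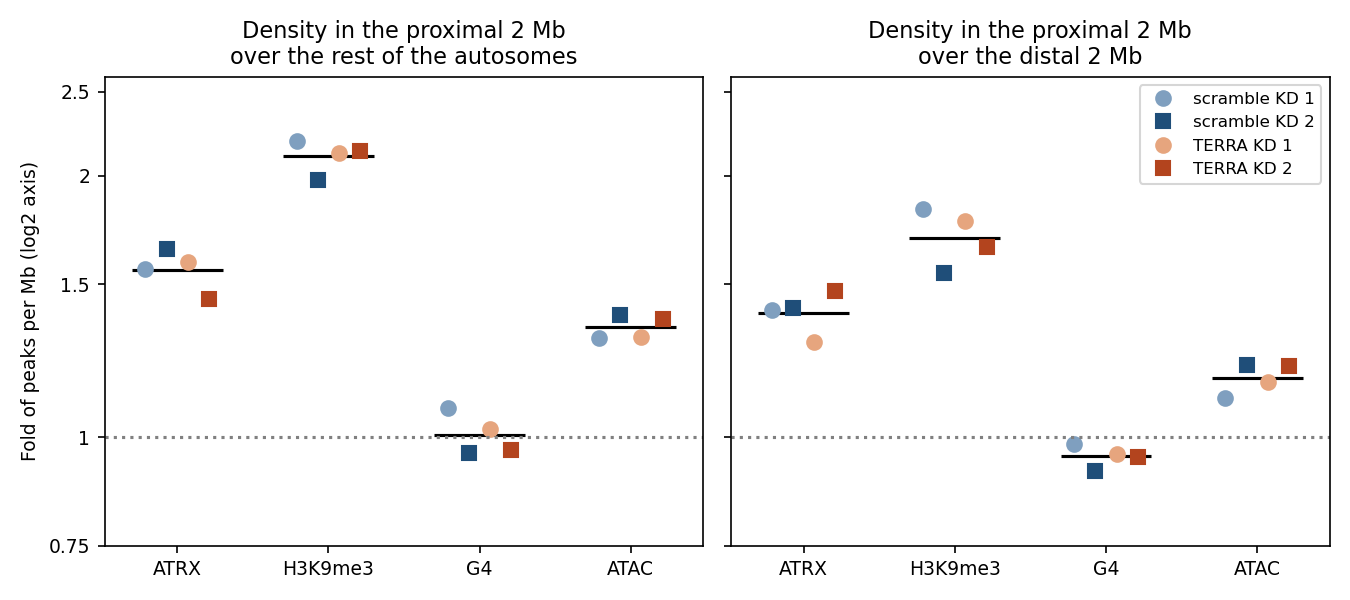
Peaks per Mb in the proximal 2 Mb as a fold of the rest of the autosomes (left) and of the distal 2 Mb (right), on a log2 axis. Each point is a list and each bar the geometric mean of the 4 lists of a mark. All H3K9me3, ATRX and ATAC points lie above the dotted line at 1, while G4 lies around it on the left and below it on the right.

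The members also differed in what they sat on. Between 67.1% and 70.4% of the bases under H3K9me3 members were soft-masked, and 47.5% to 61.0% of those under ATRX members, against 40.6% of all window bases. Under ATAC members the range was 29.5% to 32.0%. The GC content was 51.7% to 52.7% under ATAC members and 49.0% to 52.3% under G4 members, against 42.2% in the windows. A G4 motif was present in 33.2% to 41.3% of G4 members and in 17.2% to 19.3% of ATAC members. Among H3K9me3 members it was present in 32.5% and 34.8% in the broad peaks of replicate 1 and in 5.29% and 8.12% in replicate 2. Wider peaks have more room for a motif, and median members were 620 to 807 bases for G4 and 530 to 546 for ATAC. No background of like width was counted, so these shares give no enrichment and do not compare marks. Within 1 kb of a gene start lay 16.3% to 20.5% of ATAC members, 3.56% to 10.5% of G4 members and 0.696% to 3.03% of H3K9me3 members. The 2 H3K9me3 replicates had different peak shapes, with a median member of 2743 and 3658 bases in replicate 1 and of 503 and 537 bases in replicate 2.

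H3K9me3 was densest at the first sequenced bases and less dense farther out. In the first 100 kb, the density was 3.57-fold and 3.26-fold that of the rest in scramble KD, against 3.25-fold and 3.94-fold in TERRA KD. Between 100 and 500 kb it was 2.39-fold to 2.67-fold, between 500 and 1000 kb 1.98-fold to 2.13-fold, and between 1500 and 2000 kb 1.72-fold to 1.94-fold. The first 100 kb were thus above every later interval in all 4 lists, and the intervals beyond 1000 kb overlapped each other.

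ATRX had a similar course in 3 of the 4 lists. In the first 100 kb its density was 2.217-fold and 2.196-fold that of the rest in scramble KD, against 2.74-fold and 1.52-fold in TERRA KD, resting on 12, 22, 84 and 25 peaks. Between 1000 and 1500 kb it was 1.34-fold to 1.70-fold. In TERRA KD replicate 2 the highest interval was 100 to 500 kb, at 1.69-fold.

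G4 ran the other way. In the first 100 kb it was below the rest in all 4 lists, at 0.939-fold and 0.601-fold in scramble KD, against 0.668-fold and 0.606-fold in TERRA KD. From 1500 to 2000 kb it was 1.02-fold to 1.17-fold, above the rest in all 4 lists. ATAC stayed between 1.14-fold and 1.49-fold in every interval and list. Gene starts numbered 3.69 per Mb in the first 100 kb and 12.5 to 15.0 per Mb in the later intervals.

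**Figure D2:**
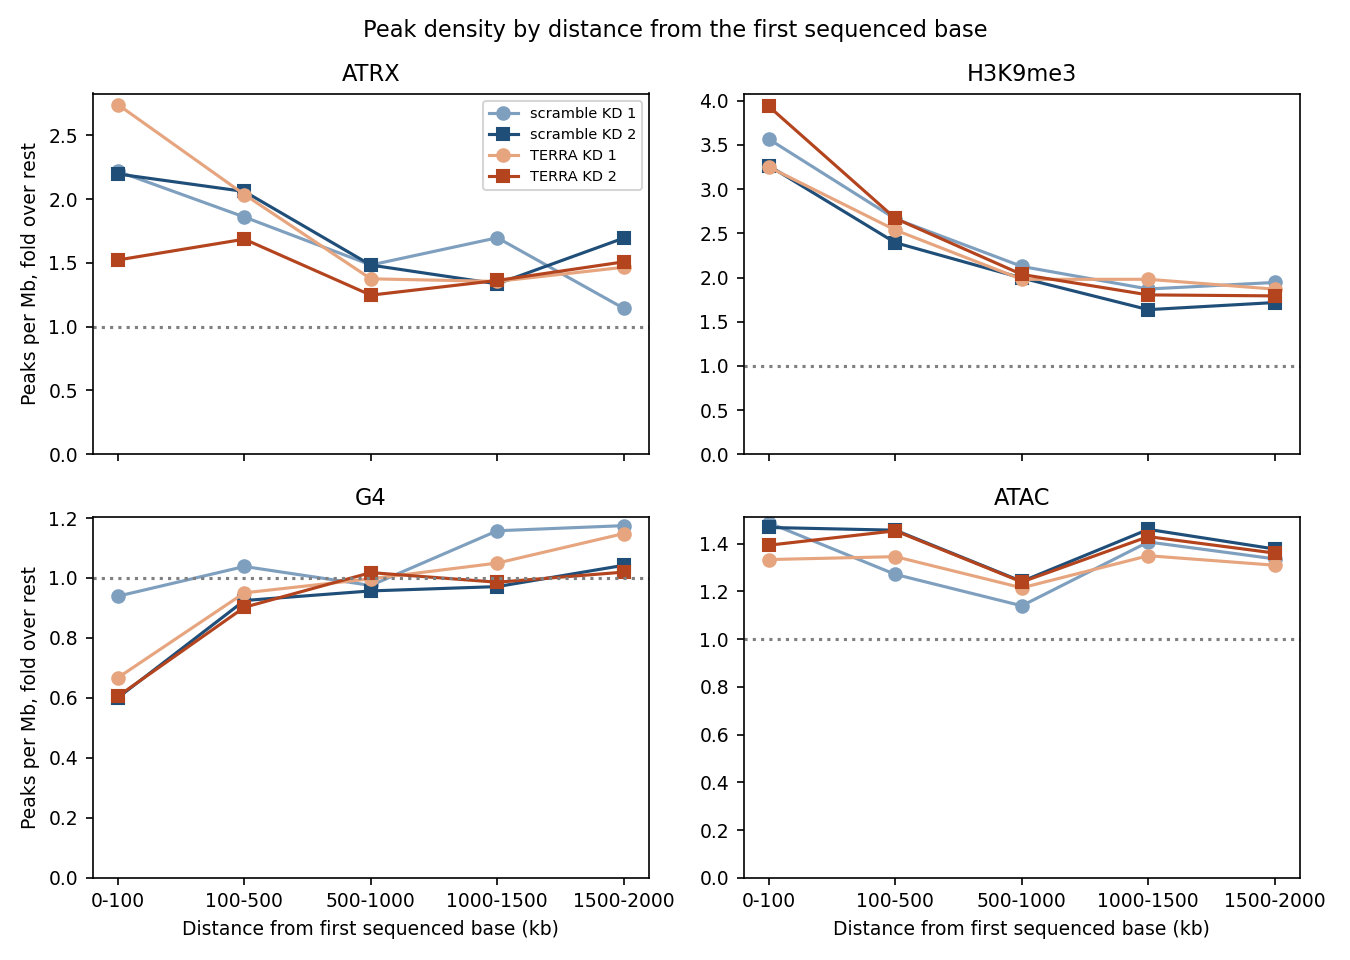
Peaks per Mb, as a fold of the rest of the autosomes, against distance from the first sequenced base in 5 intervals (kb), with a panel for each mark and a line for each list. H3K9me3 falls from 3.25 to 3.94-fold in the first 100 kb to 1.72 to 1.94-fold in the last interval, and G4 rises from 0.601 to 0.939-fold to 1.02 to 1.17-fold.

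On every chromosome a H3K9me3 site present in all 4 lists lay within 248 kb of the first base, and on 14 of 19 within 100 kb. The nearest was 3 bases from the start of the sequence of chromosome 15, in Gm9614, at chr15:3050004-3055612. The farthest was on chromosome 14, and the median distance was 32.4 kb. ATAC sites in all 4 lists began at a median of 37.0 kb and G4 sites at 57.3 kb, on all 19 chromosomes, with 17 and 11 of them within 100 kb.

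The chromosomes were not alike. H3K9me3 density was above that of the rest of the same chromosome in all 4 lists on 14 of 19 chromosomes. The highest values were on chromosomes 13 (3.21-fold to 3.86-fold) and 9 (3.068-fold to 3.801-fold). It was below in all 4 lists on chromosomes 11 (0.634-fold to 0.775-fold) and 17 (0.438-fold to 0.636-fold). Chromosome 8, with 86 and 217 members in scramble KD, against 76 and 225 in TERRA KD, held the largest number of H3K9me3 members, 604 in all.

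ATAC and G4 members were more numerous in windows with more gene starts, with exceptions. ATAC density was above the rest of the chromosome in all 4 lists on 11 chromosomes and below on 5. Among the highest were chromosome 7 (2.07-fold to 2.29-fold), with 81 gene starts, and chromosome 11 (1.86-fold to 2.04-fold), with 55. Chromosome 12 (1.97-fold to 2.14-fold), with 30 gene starts, and chromosome 14 (1.86-fold to 2.05-fold), with 16, were as high. G4 was above on 6 and below on 9, with its highest values on chromosome 19 (1.53-fold to 2.03-fold), which held 74 gene starts, and some of its lowest on chromosome 3 (0.557-fold to 0.672-fold), which held 2. Across the 19 chromosomes, the number of members against the number of gene starts had r = 0.88 for G4, 0.85 for ATAC, 0.21 for ATRX and -0.24 for H3K9me3. These correlations are descriptions over windows of equal length.

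ATRX was above the rest of the chromosome in all 4 lists on 7 chromosomes and below on 2, chromosomes 2 and 17. The chromosome 14 window stood apart in scramble KD replicate 2, with 87 of the 330 members of that list, 6.17-fold the density of the rest of the chromosome, against 8 members in scramble KD replicate 1 and 52 and 58 in TERRA KD. That window was the most repetitive of all, with 61.9% of its bases soft-masked. The part of this repetitive sequence in the count was not tested.

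**Figure D3:**
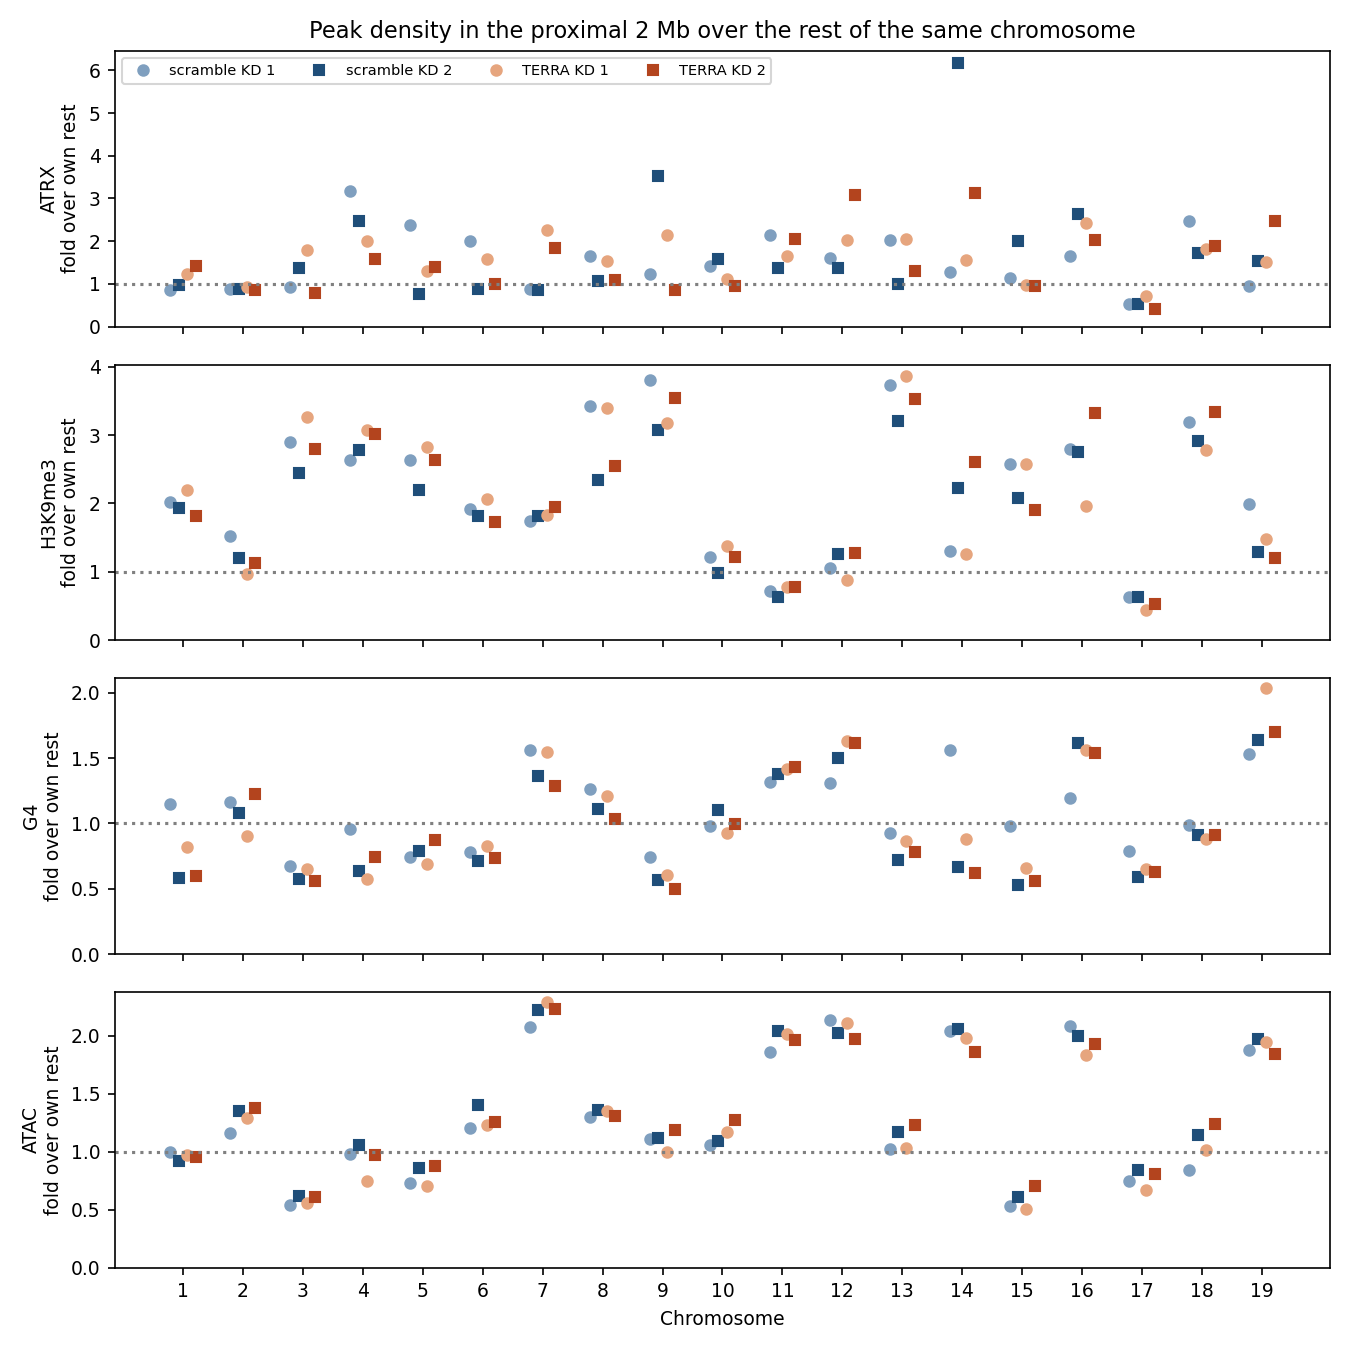
Peak density in the proximal 2 Mb as a fold of the rest of the same chromosome, for chromosomes 1 to 19, with a panel for each mark and a point for each list. H3K9me3 lies above the dotted line at 1 in all lists on 14 chromosomes and below it on chromosomes 11 and 17. The ATRX point of scramble KD replicate 2 on chromosome 14, at 6.17-fold, stands above all others.

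Whether TERRA KD changed the windows was asked with 2 measures. The first was the share of a mark's autosomal peaks that lay in them. For ATRX it was 2.45% and 2.58% in scramble KD, against 2.49% and 2.26% in TERRA KD, so the conditions overlapped (log2 ratio -0.08, with 0.03 and -0.19 in replicates 1 and 2, exact permutation p = 0.667). For H3K9me3 the log2 ratio was 0.03 (-0.04 and 0.11, exact permutation p = 1) and the conditions overlapped as well. The G4 shares were 1.71% and 1.52% against 1.62% and 1.53% (log2 -0.03, exact permutation p = 1). The ATAC shares were 2.05% and 2.18% against 2.05% and 2.15% (log2 -0.01, exact permutation p = 1). With 2 lists against 2 the smallest p is 0.333, so no difference could be called. Without chromosome 14, where scramble KD replicate 2 had its excess, the ATRX log2 ratio was 0.02.

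The second measure was the share of window bases under peaks, which moves with the number and width of the peaks called. For ATRX it was 0.252% and 0.574% in scramble KD, against 1.59% and 0.839% in TERRA KD, with every TERRA KD list above every scramble KD list (log2 ratio 1.60, with 2.66 and 0.55 in the replicates, exact permutation p = 0.333, 0.889 adjusted over the 4 marks). Outside the windows it was 0.138% and 0.307% in scramble KD, against 0.883% and 0.532% in TERRA KD. The windows were thus covered 1.83-fold and 1.87-fold as densely as the rest in scramble KD, against 1.80-fold and 1.58-fold in TERRA KD. With the lists of a replicate number set to the same number of top-ranked peaks, the log2 ratio was 0.61. The tags moved the opposite way to the ATRX peaks, with 6606064 and 15506154 in scramble KD, against 4104486 and 14878010 in TERRA KD. The inputs these peaks were called against held 3366921 and 19735093 tags in scramble KD, against 3374834 and 28622103 in TERRA KD. The part of ChIP and input depth in the number of peaks was not tested.

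H3K9me3 covered 7.88% and 3.56% of the window bases in scramble KD, against 9.79% and 4.19% in TERRA KD. The ratio of conditions was above 1 in both replicates (log2 0.31 and 0.23, mean 0.27), but the difference was smaller than that between replicates (exact permutation p = 0.667). Outside the windows the cover was 3.20% and 1.67% against 3.96% and 1.85%. For G4 the replicates went opposite ways, from 4.04% to 5.43% and from 15.3% to 7.85%. The tags of these G4 libraries did the same, from 2961038 to 5759282 and from 24588605 to 13127555. ATAC covered 2.41% and 3.23% in scramble KD, against 2.72% and 3.45% in TERRA KD (log2 0.14, exact permutation p = 0.667).

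**Figure D4:**
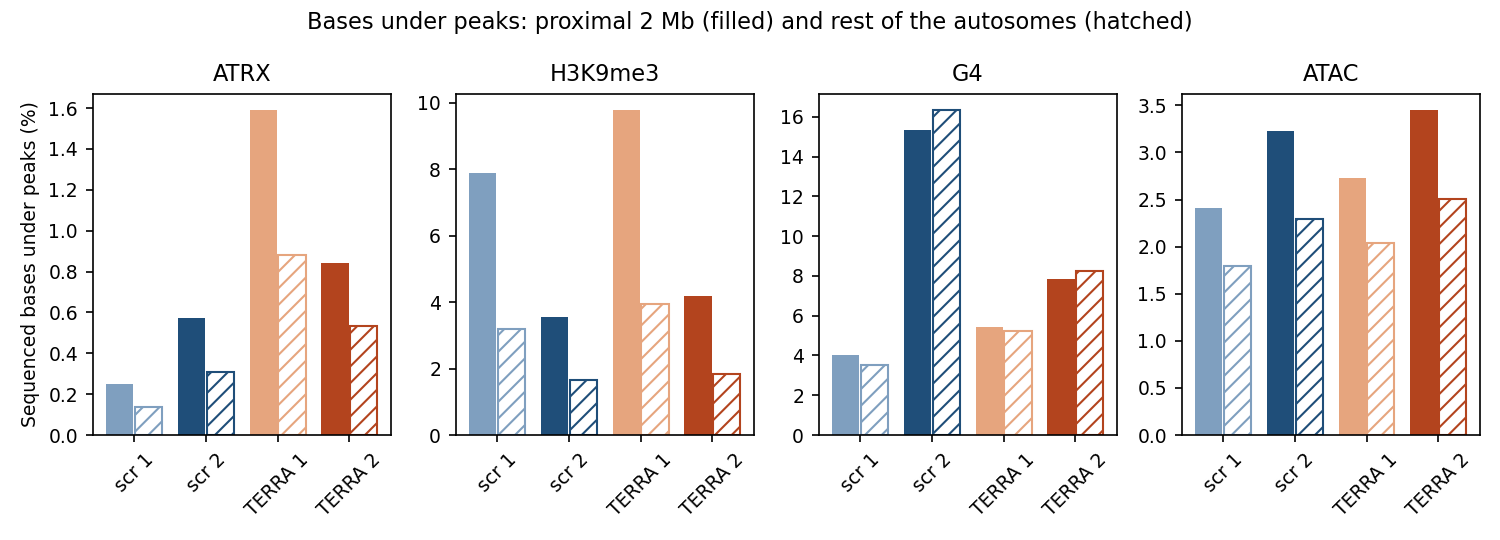
Share of sequenced bases under peaks (%) in the proximal 2 Mb (filled bars) and in the rest of the autosomes (hatched bars), for each list of each mark. Both ATRX bars of TERRA KD stand above those of scramble KD, inside the windows (0.839% and 1.59% against 0.252% and 0.574%) and outside, and the vertical axes differ between marks.

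Chromosome by chromosome, both TERRA KD lists held more ATRX members than either scramble KD list on 14 of 19 chromosomes. Outside the windows the same was true of 100% of chromosomes. For H3K9me3, G4 and ATAC the count was 0 of 19, and it was also 0% outside the windows.

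Peaks of the 4 lists of a mark were then merged into sites. Of 2020 H3K9me3 sites in the windows, 408 (20.2%) were present in all 4 lists, against 12.4% of all autosomal H3K9me3 sites. For ATRX, 2 of 1779 sites were in all 4 lists (background 0.242%), and 1651 were in only 1 list (92.8%, background 94.8%). G4 had 705 of 7155 sites in all 4 lists and ATAC 1122 of 2753, with backgrounds of 9.42% and 41.1%.

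ATRX sites in both TERRA KD lists and neither scramble KD list numbered 51 (2.87%, background 2.22%), and those with the reverse pattern 2 (background 0.0953%). For H3K9me3 the numbers were 46 (2.28%, background 1.69%) and 21 (1.04%, background 1.02%). G4 sites went the other way, with 52 in TERRA KD alone (background 0.716%) and 133 in scramble KD alone (1.86%, background 1.72%). ATAC had 81 and 37 (backgrounds 3.24% and 1.8%). The shares in the windows were near those of the autosomes, so these condition patterns are not a result about the windows.

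ATRX members lay on H3K9me3 more often than other ATRX peaks did. In scramble KD 31.4% (53 of 169) and 23.0% (76 of 330) of ATRX members shared at least 1 base with a H3K9me3 peak of the same condition and replicate number, and in TERRA KD 47.9% (467 of 975) and 28.1% (133 of 473). Outside the windows the shares were 20.3% and 15.3% in scramble KD, against 28.6% and 15.8% in TERRA KD. The difference was 12.6 ± 4.89 percentage points (SD, n = 4) and above 0 in 4 of 4 lists (exact sign-flip p = 0.125, 0.188 adjusted over 3 overlaps). Restricted to peaks whose -log10 p reached 5, it was 5.69 points and no longer above 0 in every list (exact sign-flip p = 0.5), over 6 and 5 ATRX members in scramble KD and 104 and 17 in the TERRA KD lists. The ATRX and H3K9me3 lists of a condition and replicate number were also called against the same input library. In the windows H3K9me3 was itself denser, with 2.13-fold to 2.47-fold the cover of the rest, and this part of the overlap was not separated.

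G4 members lay on ATAC peaks in 319 of 2277 and 887 of 5698 cases in scramble KD (14.01% and 15.6%) and in 507 of 2692 and 370 of 3316 in TERRA KD (18.8% and 11.2%), against 11.7%, 11.6%, 15.2% and 8.005% elsewhere. This was 3.26 ± 0.707 points more (SD, n = 4), in 4 of 4 lists (exact sign-flip p = 0.125). For ATRX on ATAC peaks the difference was 2.70 ± 2.85 points (SD, n = 4, exact sign-flip p = 0.25). Restricted to peaks with a -log10 p of 5 or more it was 12.6 points (exact sign-flip p = 0.125), over few ATRX members. Over all peaks it was 6.28 and 3.59 points in scramble KD and -0.17 and 1.10 points in TERRA KD.

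**Figure D5:**
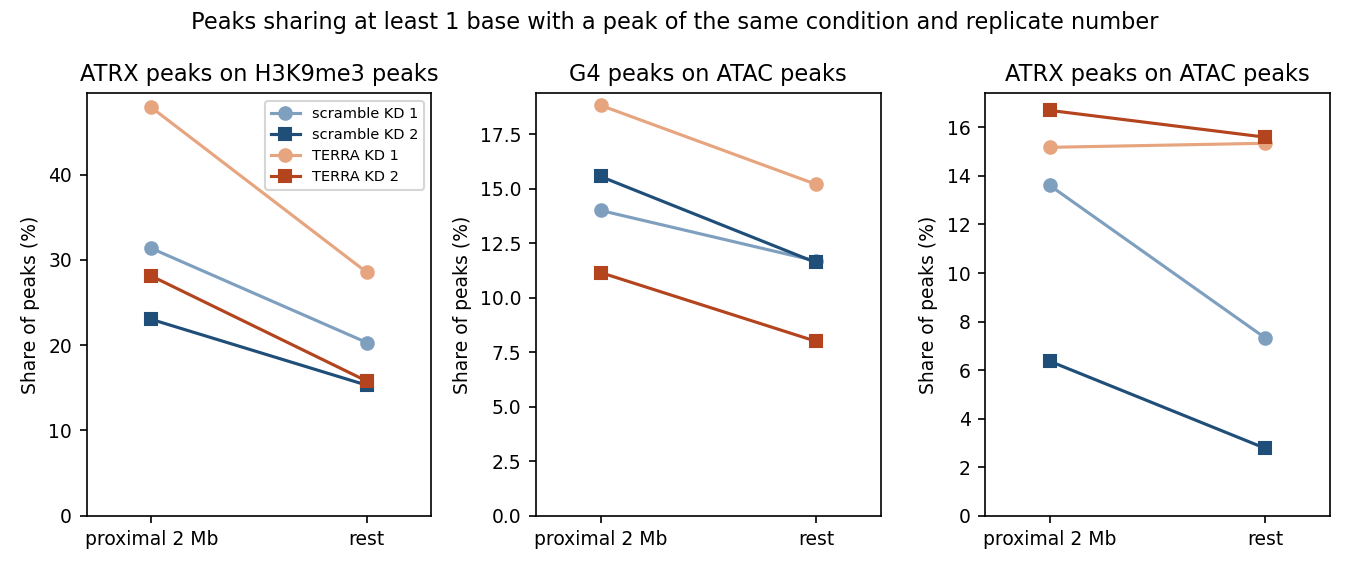
Share of peaks (%) that share at least 1 base with a peak of a second mark from the same condition and replicate number, in the proximal 2 Mb and in the rest of the autosomes, with a line for each list. For ATRX on H3K9me3 every line falls from the windows to the rest, by 7.72 to 19.3 percentage points.

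The windows held 11 tracts of at least 4 telomeric repeats, TTAGGG or CCCTAA on the other strand, of the 341 on the autosomes. They are not independent, since 7 of the 11 lay in a single site. ATRX peaks covered 9 and 7 of the 11 in scramble KD, against 10 and 8 in TERRA KD. The other marks were found there too. H3K9me3 peaks covered 1 and 7 against 0 and 9, G4 peaks 8 and 0 against 7 and 0, and ATAC peaks 7 in every list. The tracts on chromosomes 2 and 10, with 7 and 8 copies, carried ATRX in scramble KD replicate 1 and TERRA KD replicate 1. The tract on chromosome 10 carried it also in TERRA KD replicate 2. Of the 2 tracts of 5 copies on chromosome 16, 1 carried ATRX in TERRA KD replicate 1 alone and 1 in no list. The distal windows held 49 such tracts. Peaks on tracts outside the proximal windows were not counted, so these numbers have no background.

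The tandem repeat shown for chromosome 4 formed long stretches on 3 chromosomes. Matches to the 16-base words of that site, counted in steps of 5 kb with at least 50 matches a step, gave stretches of 19042 bases on chromosome 4 (chr4:3163543-3182584), 9844 bases on chromosome 6 (chr6:3132005-3141848) and 7979 bases on chromosome 18 (chr18:3112789-3120767), each beginning 82.0 to 114 kb from the first base. A stretch of 83 bases on chromosome 5 was the only other. The chromosome 4 stretch lies near Vmn1r2 and the chromosome 18 stretch near Vmn1r238, genes for vomeronasal pheromone receptors.

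The stretches on chromosomes 4 and 18 held some of the strongest ATRX and H3K9me3 peaks of several lists. On chromosome 4 the best H3K9me3 peak was at place 2755 and 31 in the scramble KD lists and at place 1577 and 1 in the TERRA KD lists, the last being the strongest peak of its list. The best ATRX peak there was at place 33 and 110 in scramble KD, against 34 and 11 in TERRA KD. On chromosome 18 the best H3K9me3 peak was at place 5 and 20 in scramble KD, against 23 and 4 in TERRA KD. On chromosome 6 the best H3K9me3 peak stood lower, at place 1314 and 523 in scramble KD, against 2524 and 225 in TERRA KD.

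ATRX on the chromosome 18 stretch was at place 19 in scramble KD replicate 1, absent from replicate 2, and at place 22 and 4 in TERRA KD. On the chromosome 6 stretch it was at place 1936 and 989 in scramble KD, against 204 and 199 in the TERRA KD lists. Read as a share of the list, the best ATRX peak of each of these 3 stretches stood nearer the top in both TERRA KD lists than in either scramble KD list, or was absent from the latter. On chromosome 4 it was within the top 0.451% and 0.806% in scramble KD, against the top 0.0822% and 0.0506% in TERRA KD. The TERRA KD lists were longer, which lowers such a share at the same place, and the stretches were chosen after their values were seen.

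The satellite-like letters of chromosome 12 differed from stretch to stretch. Matches to that site formed 7 stretches, the longest 38383 bases from the first base of chromosome 9 (chr9:3000003-3038385). It held 16 and 17 ATAC peaks in scramble KD, against 15 and 15 in TERRA KD, and no ATRX or H3K9me3 peak in any list. A G4 peak lay there in scramble KD replicate 1 alone, at place 3 with 56740 tags. The stretch of 4693 bases on chromosome 11 went the other way, with no ATAC peak in any list. It held 0 and 2 H3K9me3 peaks in scramble KD, against 1 and 3 in TERRA KD, and 0 and 1 ATRX peaks against 2 and 0. ATAC peaks were called without an input library, whereas the ChIP peaks were called against one.

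At the chromosome 12 site, chr12:3109720-3110201, the ATAC pileup was 164 and 169 in scramble KD, against 168 and 175 in TERRA KD, at places 13 to 17 of each list. H3K9me3 peaks were called there only in replicate 2 of both conditions, at places 11 and 14, and ATRX peaks in the same replicate, at places 153 and 60. G4 peaks were called in scramble KD replicate 1 and both TERRA KD lists, at places 8, 21 and 5611. Reads were aligned with the default settings of Bowtie2, which reports a single position for a read that has several equally good ones, so values on repeats of this kind are uncertain.

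Other H3K9me3 members present in all lists were broad. On chromosome 18 a site of 13538 bases (chr18:3616527-3630064), 115 kb from the start of Bambi, a TGF-beta pseudoreceptor, had its best H3K9me3 peak at places 261 and 206 in scramble KD, against 583 and 1063 in TERRA KD. A site of 9680 bases over Gm6682 on chromosome 12 (chr12:4782768-4792447) was at places 674 and 311 against 579 and 1127. There ATRX peaks were listed in both TERRA KD lists, with 18 and 14 tags at places 989 and 7498, and in neither scramble KD list. The nearest gene start was that of Pfn4, a profilin. At the site of 13538 bases on chromosome 18, ATRX peaks were in all 4 lists. The best held 27 and 13 tags in scramble KD, against 38 and 8 in TERRA KD. Their places were 978 and 922 against 286 and 10257.

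The G4 members that ranked best in all lists lay outside gene starts. A site on chromosome 12 (chr12:4794913-4796243) was 82.9% soft-masked and held no G4 motif. Its G4 peak held 33 and 114 tags in scramble KD, against 54 and 78 in TERRA KD, at places 273 and 2265 against 591 and 91. At the chromosome 14 site the tags were 32 and 261 against 93 and 155, and at the chromosome 19 site, 5.03 kb from the start of Cpt1a, which encodes carnitine palmitoyltransferase of mitochondrial fatty acid uptake, they were 37 and 113 against 59 and 42. Their places were 1430 and 607 against 1515 and 839, and 264 and 4168 against 203 and 1194. The places of the conditions overlapped at each of these sites, and the tags are not scaled to depth.

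Among ATAC members, the best in all lists besides the chromosome 12 site were at the start of the chromosome 18 sequence and in Sfi1 on chromosome 11. Sfi1 encodes a centrin-binding protein of centrosomes. Its site (chr11:3192704-3193881), which overlaps an exon, had a pileup of 233 and 291 in scramble KD, against 282 and 311 in TERRA KD, at places 26 and 25 against 23 and 26. ATRX, H3K9me3 and G4 peaks were absent there from all lists. The ATAC fold enrichment at Sfi1, a ratio to the local background, was 7.80 and 7.55 in scramble KD, against 8.21 and 7.06 in TERRA KD. At the chromosome 12 site, with a lower pileup, it was 27.4 to 28.6, so the local background at Sfi1 was higher.

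Gene starts in the windows were mostly open and rarely carried ATRX or H3K9me3. ATAC peaks lay within 1 kb of 66.2% and 72.0% of the 497 starts in scramble KD, against 69.4% and 71.6% in TERRA KD, and of 60.0% to 64.7% of starts elsewhere. H3K9me3 peaks lay at 4.02% and 2.82% against 4.63% and 2.41%, where 1.90% to 2.32% of other starts had one. ATRX peaks lay at 2.01% and 0.402% of the starts in scramble KD, against 9.46% and 6.04% in TERRA KD, and at 1.05%, 0.584%, 8.31% and 4.93% of the starts elsewhere. Every TERRA KD list was above both scramble KD lists, inside and outside the windows.

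ATRX lay at 5 starts in both TERRA KD lists and in neither scramble KD list, where the background over all autosomal starts was 0.721%. They were those of Nf2, Ctxn1, Pnpla6, Cacng8 and 2610042L04Rik. Nf2 encodes merlin, a tumour suppressor that acts on Hippo signalling, and its peaks held 5 and 10 tags, at the 75.1 and 86.8 percent mark of the lists, where 100 is the weakest. Pnpla6 encodes neuropathy target esterase, a lysophospholipase, and had 5 and 14 tags. Ctxn1, which encodes cortexin, had 13 and 12 tags, and Cacng8, for an AMPA receptor auxiliary subunit, 5 and 12. The best placed was 2610042L04Rik on chromosome 14, with 18 and 44 tags, within the top 0.774% in TERRA KD replicate 2. Symbols of this kind on chromosome 14 belong to duplicated sequence, so its reads may come from copies. No start had ATRX in both scramble KD lists alone (background 0.00801%), and none had it in all 4 lists (background 0.012%).

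G4 was found at 18 starts in both scramble KD lists and in neither TERRA KD list (3.62%, background 4.86%) and at no start with the reverse pattern (background 0.228%). In all 4 lists it was found at 41 starts (8.25%, background 9.35%). Both G4 lists of a condition shared an input library, so they are not independent, and the input cannot be told apart from the condition. Suv39h2, which encodes a H3K9 methyltransferase of pericentric heterochromatin, was among the 18, with 10 and 19 tags and no G4 peak in TERRA KD. Its scramble KD peaks stood at the 19.9 and 99.1 percent mark of their lists, so the second was among the weakest. The ATAC peak at its start was present in all 4 lists. The 250 bases before the RefSeq start of Suv39h2, at chr2:3474987-3475236 (GRCm38, minus strand), hold a G4 motif, in capitals.
Suv39h2 promoter: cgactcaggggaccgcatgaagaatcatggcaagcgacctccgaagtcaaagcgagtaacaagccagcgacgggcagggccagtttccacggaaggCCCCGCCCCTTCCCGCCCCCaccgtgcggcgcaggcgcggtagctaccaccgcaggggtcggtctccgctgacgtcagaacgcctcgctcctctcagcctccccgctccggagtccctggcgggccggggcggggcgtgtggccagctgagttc
RefSeq promoters of 15 of the 18 symbols were at hand. A motif was present in 7 of their 17 promoters (41.2%), in 21.3% of 456 promoters of genes in the windows and in 16.9% of all 31396 autosomal promoters. The 18 starts were chosen for G4 peaks, and neither reference was limited to promoters with such a peak. The shares therefore do not compare like with like.

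In the rest of this group the scramble KD peaks of replicate 1 held few tags. Rasl10a, a Ras-like protein gene, had 7 and 89 tags, Stxbp2, for a syntaxin-binding protein of secretion, 6 and 75, and Cdk2ap2, for a CDK2-associated protein, 4 and 78. Penk, which encodes proenkephalin, had 4 and 25, and Cul2, for the cullin of the VHL ubiquitin ligase, 4 and 26. Cacng6 and 3300002P13Rik share a peak, as do Leng8 and D030047H15Rik, so the 18 starts do not stand for 18 separate peaks. Others were Arhgef18, Atad2b, Castor1, Cdc42ep5, Fam107b, Gm34507 and H60c. G4 peaks lay at 42.1% and 67.0% of window starts in scramble KD, against 54.1% and 22.3% in TERRA KD. Elsewhere they lay at 42.1% and 65.2% against 49.4% and 22.4%, so the replicates went opposite ways.

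H3K9me3 lay at 3 starts in all 4 lists (background 0.32%). Rprl3, an RNA gene related to the RNase P RNA, had 318 and 33 tags in scramble KD, against 440 and 10 in TERRA KD. Lair1, which encodes an inhibitory receptor of immune cells, had 101 and 12 against 149 and 12, and 6720473M11Rik had 234 and 12 against 250 and 6. The start of Cd209c, a C-type lectin gene, carried H3K9me3 in both TERRA KD lists alone (background 0.124%), with 55 and 7 tags. No start had it in scramble KD alone (background 0.0561%).

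ATAC peaks were in all 4 lists at 322 starts (64.8%, background 57.7%) and in both lists of a single condition at 5. Pomc, which encodes proopiomelanocortin, Dnase1 and LOC105244649 had a peak in both scramble KD lists alone (background 0.244%), with a pileup of 7 and 8 at Pomc. Rprl3 and Gm11961 had one in both TERRA KD lists alone (background 0.605%), with 7 and 14 at Rprl3.

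Of 31 genes listed by role, 26 had their start in the windows. ATAC peaks were at 19 of them in all 4 lists and H3K9me3 at 25 in none. Over all window starts, ATAC peaks were in all 4 lists at 64.8%, and H3K9me3 lay at only 2.41% to 4.63% a list. These counts are therefore not a result about the listed genes. Among the chromatin regulators, Suv39h2, Kmt5b, which methylates H4K20, the DNA methyltransferase Dnmt3a and the acetyltransferase Crebbp all carried G4 in both scramble KD lists, and the last 3 also in TERRA KD replicate 1 but not in replicate 2. The imprinted genes Peg10 and Sgce, which share a start region, and Ppp1r9a had the same G4 pattern. Each had ATRX in TERRA KD replicate 1 alone, a list with ATRX at 9.46% of window starts. Starts with ATRX in that list alone were not counted over the windows. G4 lay at fewer starts in TERRA KD replicate 2, at 22.3% of window starts, against 42.1%, 67.0% and 54.1% in the other lists. The pattern without that list was not counted over all starts, so it is not a result about these genes.

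Among transcription factor genes, Tfap4 carried G4 in all 4 lists, Hnf4g and Plag1 in scramble KD replicate 2 and TERRA KD replicate 1, and Asxl2 in none. Sox17, of endoderm, and Esr1, the oestrogen receptor, had no ATAC peak at the start in any list. Of the signalling and other genes, Insr, Lyn and Gria4 had open starts in all lists and G4 in all but TERRA KD replicate 2, and Ghr and Col1a2 had G4 in all 4. At Sfi1 the start had no G4 and an ATAC peak in scramble KD replicate 1 alone, while the gene body held 14 to 16 ATAC peaks a list.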

How the data were processed

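For each of ATRX, H3K9me3, G4 and ATAC, 2 libraries per condition were taken from 22 samples, 6 of them inputs. The source label of all 6 inputs names TERRA KD, while the title, description and knockdown label of 3 of them name scramble KD, and the latter were followed. The authors trimmed reads with Trim Galore 0.5.0, aligned them to GRCm38/mm10 with Bowtie2 2.3.4.1, removed duplicates with SAMtools 1.9 and called peaks in each library at p = 0.01, with MACS 1.4.3 (ATRX, H3K9me3) or 1.4.2 (G4) against input and 2.2.7.1 (ATAC) without input. The deposited lists give, per peak, a count of tags, a score of −10 log10 p, a fold enrichment (a ratio to the local background) and a false discovery rate in percent, which was not used. The deposited ATAC lists give a pileup signal, a fold enrichment and −log10 p. None is scaled between libraries, so peaks were ranked by p within their list, and a missing peak means only that enrichment was not detectable at that depth.

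Peak numbers, covered bases, merged sites and overlaps of at least 1 base were computed in Python 3.11.15 (numpy 2.4.6, pandas 2.3.3) on the RefSeq sequence and annotation of GRCm38.p6, and the scripts were checked on simulated data. Conditions were compared with two-sided exact permutation tests (smallest p 0.333) and regions with exact sign-flip tests over 4 lists (smallest p 0.125), adjusted by Benjamini-Hochberg within each family. Alternatives changed the p cutoff, window length, membership, chromosomes, list length, overlap and replicates. Genes were named where a peak lay within 1 kb of the start in both lists of a condition and neither of the other, or in all 4 lists for H3K9me3, with a list by role; sites were those in all 4 lists that ranked best. Members and lists were chosen with earlier results of these data known. Some items that these rules name are not reported here.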

Additional observations from a re-analysis of the deposited data

How the results depend on the processing

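The higher density of H3K9me3, ATRX and ATAC in the proximal windows kept its direction under every alternative tried, with mean log2 ratios over the rest of 0.93 to 1.36, 0.52 to 1.29 and 0.24 to 0.45. Leaving out a replicate gave 1.04 to 1.11, 0.63 to 0.66 and 0.38 to 0.46. The G4 density, near that of the rest, changed sign: its log2 ratio was -0.083 in the first 1 Mb, -0.0054 in the first 3 Mb, -0.054 without chromosome 19, -0.19 as the median over chromosomes and -0.056 to 0.073 without a replicate. The median over chromosomes, and windows without their first 100 kb, were chosen after seeing the data. The ratio of conditions in the share of peaks also changed sign. For ATRX (log2 -0.08) it was 0.025 without chromosome 14, 0.13 when both lists were shortened to equal length and -0.19 to 0.026 without a replicate. For H3K9me3 (0.03) it was -0.024 when the -log10 p had to reach 5 and -0.045 to 0.11 without a replicate. For G4 (-0.03) it was 0.066 at that p and -0.080 to 0.013 without a replicate. For ATAC (-0.01) it was 0.025 in the first 1 Mb, 0.0098 in the first 3 Mb, 0.00067 without the first 100 kb and -0.017 to 0.0052 without a replicate. The covered share was -0.96 to 0.42 for G4 and 0.55 to 2.66 for ATRX without a replicate, and at that p it was 3.04 for ATRX, 0.64 for H3K9me3 (0.27 over all peaks) and -0.58 for G4 (-0.27). With lists of equal length it was 0.61 for ATRX, -0.16 for G4 and 0.068 for ATAC (0.14). The cause was not tested. Of 132 alternatives that could differ, 115 kept the direction, and the other 12 equal the reported value by construction. The replicate block, paired by number, is among these: the ATRX covered share has a mean of 1.60 with it too (exact sign-flip p = 0.5, the smallest 2 pairs allow). Deviations in 1-Mb bins correlated between same-numbered libraries with r = 0.02 (ATRX), 0.29 (H3K9me3), 0.51 (G4) and 0.15 (ATAC). Depth limits every absent peak. Of ATRX members, 1.52% to 10.7% reached a -log10 p of 5.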
